A study of Mus musculus with 12 samples.

Results

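The CXC chemokine ligands are small proteins that attract leukocytes, and 8 of their genes were examined in J774A.1 cells, a mouse macrophage line: Cxcl1, Cxcl2, Cxcl3, Cxcl9, Cxcl10, Cxcl11, Cxcl14 and Cxcl16. They were taken by name, without a threshold on their values, from 18719 genes listed in at least 1 of the 2 deposited count tables. RNA was sequenced from 12 cultures in 4 groups of 3. WT cells had received a control vector without a guide, and ACAT1 KO cells had been edited with CRISPR-Cas9 at Acat1, which encodes a mitochondrial thiolase of fatty acid and ketone body breakdown. Each genotype was represented by 3 different lines that the study describes as clonal. RNA came from untreated cells and from cells kept for 2 hours with lipopolysaccharide (LPS) at 100 ng/ml, a bacterial product sensed by TLR4, and libraries with the same number are taken as the same line. All groups share the J774A.1 background and the culture medium.

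The family is usually divided by receptor. Cxcl1, Cxcl2 and Cxcl3 carry the ELR motif, bind CXCR2 and attract neutrophils. Cxcl9, Cxcl10 and Cxcl11 bind CXCR3 on activated T cells and NK cells and are known as interferon-inducible genes. Cxcl16 is made as a membrane protein that binds CXCR6 and can be shed from the cell surface, whereas Cxcl14 is best known from epithelia. In macrophages, LPS acts on many of these genes through NF-kappa-B and through interferon-beta that the cells release themselves.

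The promoters are shown first because the 3 ligands of CXCR2 share a motif at a similar place, and both ligands of CXCR3 that could be matched share another. RefSeq promoters of GRCm38.p6, spanning 250 bases before and 50 bases after the gene start, were matched for 6 of the 8 genes, all except Cxcl11 and Cxcl16. Below, the bases upstream of the annotated transcripts are printed 5′ to 3′ on the coding strand, and capitals mark motif matches found on either strand. The first 3 genes carry the kappa-B consensus, given here by name, to which NF-kappa-B binds.
Cxcl1 (chr5:90891141-90891240, + strand): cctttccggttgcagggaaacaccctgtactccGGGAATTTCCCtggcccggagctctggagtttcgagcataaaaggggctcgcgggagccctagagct
Cxcl2 (chr5:90903771-90903870, + strand): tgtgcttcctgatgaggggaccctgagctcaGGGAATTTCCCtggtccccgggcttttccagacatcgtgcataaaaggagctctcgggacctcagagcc
Cxcl3 (chr5:90786001-90786100, + strand): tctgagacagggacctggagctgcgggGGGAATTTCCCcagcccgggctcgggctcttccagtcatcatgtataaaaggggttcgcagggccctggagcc

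The capital run is the same in all 3, and the match began at position -71 of Cxcl1, -97 of Cxcl2 and -73 of Cxcl3 relative to the RefSeq start. Among all 32851 promoters of this length, 8.46% held the kappa-B consensus. The next 2 genes carry the core of the interferon-stimulated response element (ISRE), searched as GAAANNGAA and present in 8.56% of promoters.
Cxcl9 (chr5:92328080-92328264, - strand): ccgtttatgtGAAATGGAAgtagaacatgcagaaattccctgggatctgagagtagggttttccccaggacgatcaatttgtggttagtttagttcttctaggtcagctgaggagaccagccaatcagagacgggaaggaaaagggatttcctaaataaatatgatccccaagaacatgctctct
Cxcl10 (chr5:92348890-92349112, - strand): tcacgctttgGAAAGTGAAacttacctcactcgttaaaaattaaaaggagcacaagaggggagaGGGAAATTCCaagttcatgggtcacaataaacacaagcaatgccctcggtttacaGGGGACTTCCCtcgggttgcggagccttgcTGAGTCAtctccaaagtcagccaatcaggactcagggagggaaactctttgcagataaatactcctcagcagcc

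In Cxcl10 the capitals mark, from left to right, the ISRE core at -213, a kappa-B match at -159, a pair of overlapping kappa-B matches at -104 and -103 and an AP-1 match at -74. Cxcl9 held the ISRE core at -175 and no kappa-B match in this window, and its AP-1 match lay downstream of the start, at 32. The AP-1 site was searched as TGANTCA, which 7.81% of promoters hold. Cxcl14 held an ISRE core at -172 and the gamma-activated site TTCNNNGAA, present in 8.3% of promoters, at -191. These matches describe letters in the sequence and are no measure of binding.

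**Figure D1:**
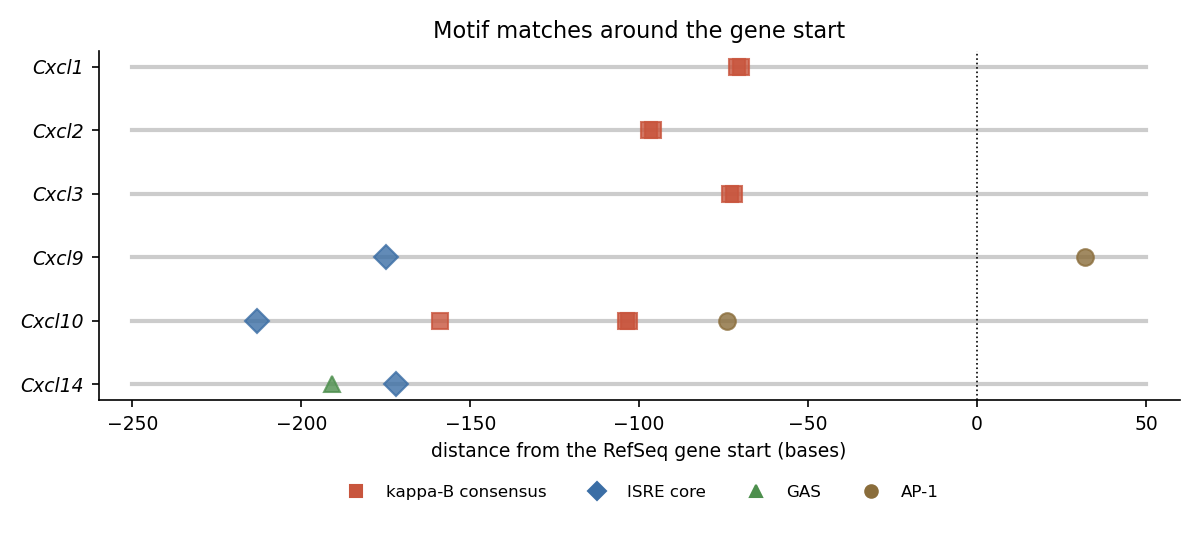
Positions of motif matches on either strand in the 6 matched promoters, with the distance from the RefSeq gene start in bases on the x axis. The grey line is the window searched, and kappa-B matches of Cxcl1, Cxcl2 and Cxcl3 lie between -97 and -70.

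In GRCm38, 6 of the 8 genes lie on chromosome 5. Cxcl3 (ENSMUSG00000029379, 90786103 to 90789600, plus strand), Cxcl1 (ENSMUSG00000029380, 90891241 to 90893115, plus strand) and Cxcl2 (ENSMUSG00000058427, 90903871 to 90905938, plus strand) form one group. Cxcl9 (ENSMUSG00000029417, 92321347 to 92328079, minus strand), Cxcl10 (ENSMUSG00000034855, 92346638 to 92348889, minus strand) and Cxcl11 (ENSMUSG00000060183, 92359544 to 92365485, minus strand) form the other, 1415.4 kb away. Within the groups, Cxcl1 and Cxcl2 are 10.8 kb apart, and Cxcl10 and Cxcl11 are 10.7 kb apart. Cxcl16 (ENSMUSG00000018920) lies on chromosome 11 from 70453983 to 70459984, and Cxcl14 (ENSMUSG00000021508) on chromosome 13 from 56288643 to 56296551, both on the minus strand. The annotation classes Cxcl11 as a polymorphic pseudogene, a gene that is intact in some strains only.

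Some counts are uncertain because of shared sequence. Transcripts of Cxcl2 and Cxcl3 share a stretch of 157 identical bases, while no other pair of the 8 genes shares more than 49. Art3, on the other strand, overlaps Cxcl10 by 133 exonic bases, and Zmynd15 overlaps Cxcl16 by 552. The sources used here do not state whether counting used the strand. Art3 was low, at 2 to 28 counts per library without stimulation and 57 to 134 after LPS, so its reads are few beside those of Cxcl10. Zmynd15 had 962 to 1643 counts without stimulation, and Cxcl16 had 8108 to 25068. After LPS, Zmynd15 had 2627 to 5209 counts and Cxcl16 had 38598 to 67523. A processed pseudogene, Gm2673, overlaps Cxcl11 by 1582 exonic bases on the other strand and was listed in neither table.

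Totals ranged from 56948593 to 167280149 counts per library. Acat1 was lower in every ACAT1 KO library than in every WT library in both states, with log2 fold changes of -1.87 (SE 0.124, adjusted p = 0.00876) and -2.08 (SE 0.13, adjusted p = 7.87e-04, edgeR). All 7 macrophage markers were counted in every group, and Lyz2 alone reached 5020 to 7410 CPM (counts scaled to the library total). Some of them differed between genotypes. Fcgr1 was lower in ACAT1 KO cells at rest (-0.69, adjusted p = 0.0124) and after LPS (-1.07, adjusted p = 0.00312, edgeR), Adgre1 was lower at rest (-0.78, adjusted p = 0.0368) and Itgam higher after LPS (0.48, adjusted p = 0.0147, edgeR). Markers of other cells were sparse: Cd3d, Cd3e, Cd3g, Ms4a1, Ly6g and Col3a1 were listed in neither table, and summed levels of the neutrophil, T cell, B cell and endothelial lists stayed at or under 11 CPM. Of the 4 fibroblast markers, Pdgfra and Col1a1 were listed, and their sum was 11.4 to 13.1 CPM in ACAT1 KO and 5.58 to 6.56 CPM in WT after LPS, while without stimulation Pdgfra alone was listed, at 1.14 to 1.67 CPM. The part of these genes in the results was not tested. The unstimulated libraries WT 1, WT 2 and ACAT1 KO 2 stood apart, with 0.1436 to 0.1986% of counts on antisense genes against 0.0732 to 0.0876% in the other 9.

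Among these 8 ligands, the repertoire of the resting cells was narrow. Of the 8 ligands, Cxcl2, Cxcl16, Cxcl10, Cxcl11 and Cxcl14 were listed without stimulation, and Cxcl1, Cxcl3 and Cxcl9 were not. The tables hold genes with 4 or more counts in 5 or 6 libraries of a state, and an unlisted gene has no value here. Levels were compared per length, as CPM per kilobase of exon (RPKM). Cxcl2 was the highest of the 8, at 181 ± 83.6 RPKM in WT and 177 ± 56.4 in ACAT1 KO cells (SD, n = 3 here and below). Cxcl16 followed at 45.1 ± 3.93 and 52.6 ± 6.97 RPKM. Cxcl10 was far lower, at 3.44 ± 0.52 and 1.83 ± 0.369 RPKM. Cxcl11 and Cxcl14, each under 0.11 RPKM in every library, did not differ from each other beyond the spread of the lines. Cxcl2 supplied 63.2 to 79.6% of the summed CPM of these ligands in resting libraries. That sum leaves out other CXC ligands such as Pf4, which is described below.

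After LPS, 7 ligands were listed and the order changed. Cxcl10 was highest at 1440 ± 287 RPKM in WT and 1820 ± 219 in ACAT1 KO cells. Cxcl2 was next at 261 ± 54.9 and 482 ± 164 RPKM, so Cxcl10 exceeded it 5.52-fold in WT and 3.78-fold in ACAT1 KO cells. Cxcl16 reached 146 ± 4.96 and 158 ± 14.6 RPKM and Cxcl11 33.7 ± 8.29 and 19.4 ± 5.38 RPKM. The remaining 3 were minor: Cxcl9 at 3.33 ± 1.56 and 2.43 ± 1.7 RPKM, Cxcl3 at 0.53 ± 0.124 and 0.722 ± 0.0223 RPKM, and Cxcl1 at 0.173 ± 0.0811 and 0.34 ± 0.0973 RPKM. In these orders the libraries of neighbouring genes did not overlap within a genotype, apart from Cxcl11 and Cxcl14 without stimulation. With the length of the longest coding transcript instead, Cxcl9 and Cxcl3 came to 2.53 and 2.49 RPKM in ACAT1 KO cells. Cxcl10 made up 67.5 to 77.5% of the summed CPM of these ligands after LPS, from 0.709 to 2.47% without it. Cxcl14 was not listed after LPS.

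**Figure D2:**
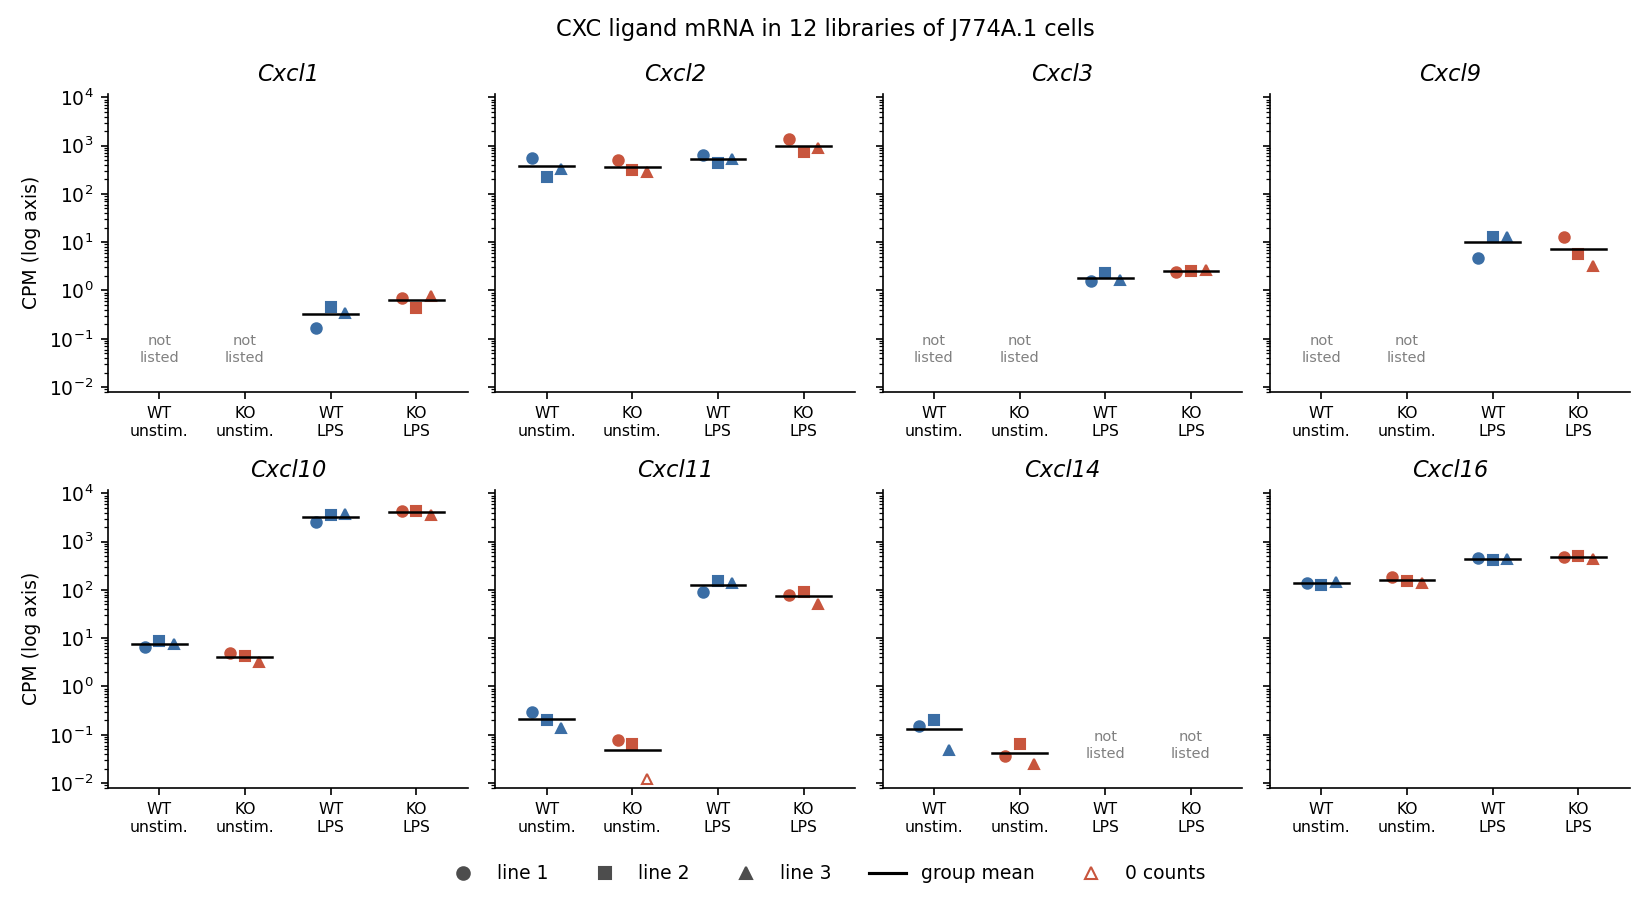
Level of each of the 8 ligands in CPM (y axis, log scale) in the 4 groups, with 1 symbol per line and a black bar for the group mean. Cxcl10 and Cxcl11 rise by orders of magnitude with LPS in both genotypes, and the open triangle marks the ACAT1 KO library with 0 Cxcl11 counts.

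The first comparison asked how the ligands differed between genotypes in resting cells. None of the 4 ligands that could be tested passed the adjusted threshold of 0.05, which 1.91% of 16440 genes passed. Before adjustment, at the study's own threshold of 0.05, Cxcl10 and Cxcl11 were lower in ACAT1 KO cells, and 19.7% of genes passed. The median log2 fold change of the 4 ligands was -0.47, against 0 over all genes. Bulk RNA cannot tell fewer expressing cells from less RNA per cell, here and in every result that follows.

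Cxcl10, a CXCR3 ligand, was counted at 6.62, 8.96 and 7.63 CPM in WT lines 1 to 3 and at 4.86, 4.26 and 3.22 CPM in ACAT1 KO lines 1 to 3. The highest ACAT1 KO line was below the lowest WT line, a separation of groups that 25.5% of all genes also showed. The log2 fold change was -0.90 (SE 0.195, 95% interval -1.36 to -0.44, unadjusted p = 0.0025, adjusted p = 0.0741, edgeR), or 1.87-fold lower. The call depends on the test: the adjusted p was 1.19e-04 with DESeq2, 0.015 when all 12 libraries shared a fit and 0.0479 with a term for the 3 libraries rich in antisense counts. Within those 3 libraries the log2 difference in mean CPM was -0.87, and within the other 3 it was -0.92, with no replicates in 1 group of each.

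Cxcl11, the neighbour of Cxcl10, was close to the limit of counting. WT lines 1 to 3 had 21, 13 and 17 counts, and ACAT1 KO lines 1 to 3 had 11, 6 and 0. In CPM the WT libraries lay at 0.297, 0.198 and 0.138 and the first 2 ACAT1 KO libraries at 0.0796 and 0.0653, below all WT libraries. For the ACAT1 KO library with 0 counts, a limit of 3 counts corresponds to 0.0248 CPM. The log2 fold change was -2.07 (SE 0.807, 95% interval -3.98 to -0.15, unadjusted p = 0.0379, adjusted p = 0.224, edgeR), a fitted value that depends on the prior count of the fit and ran from -2.76 without ACAT1 KO 1 to -1.48 without ACAT1 KO 3.

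Cxcl2, the most abundant of the 8 at rest, had 566, 229 and 330 CPM in WT lines and 499, 307 and 289 CPM in ACAT1 KO lines. The groups overlapped, and the log2 fold change was -0.03 (SE 0.353, adjusted p = 0.977, edgeR) with an interval from -0.87 to 0.81. Line 1 was highest in both genotypes. Cxcl16, the CXCR6 ligand, was counted at 138, 124 and 147 CPM in WT and 181, 156 and 140 CPM in ACAT1 KO lines. These groups overlapped too, at a log2 fold change of 0.23 (SE 0.112, interval -0.03 to 0.5, adjusted p = 0.313, edgeR).

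Cxcl14 was present at trace level only, with 11, 13 and 6 counts in WT and 5, 6 and 3 counts in ACAT1 KO lines. Its groups touched at 6 counts but overlapped in CPM, where WT line 3 had 0.0485 and ACAT1 KO line 2 had 0.0653. The filter on low counts removed it before the test. Fitted without that filter, its log2 fold change was -1.59 (SE 0.64, unadjusted p = 0.0417, adjusted p = 0.244, edgeR).

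After LPS, Cxcl2 was higher in ACAT1 KO cells, the 1 ligand of 7 past the adjusted threshold, which 15.1% of 16483 genes passed. At an unadjusted p under 0.05, Cxcl1, Cxcl2, Cxcl3 and Cxcl10 were higher and Cxcl11 was lower, 5 of 7 ligands against 31.3% of all genes. The median log2 fold change of the 7 ligands was 0.36, against 0 over all genes.

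Cxcl2 was counted at 654, 427 and 540 CPM in WT lines and at 1381, 736 and 873 CPM in ACAT1 KO lines. All ACAT1 KO libraries were above all WT libraries, as the libraries of 37.8% of genes were separated in one direction or the other, and line 1 of each genotype was again its highest. The log2 fold change was 0.90 (SE 0.237, 95% interval 0.36 to 1.45, adjusted p = 0.0392, edgeR), or 1.87-fold. This call is narrow: leaving out WT 2, WT 3, ACAT1 KO 1 or ACAT1 KO 3 raised the adjusted p to 0.116, 0.0881, 0.0838 and 0.0719, and fitting all 12 libraries together raised it to 0.11. Without ACAT1 KO 1 the log2 fold change was 0.60.

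Cxcl1 and Cxcl3 were far less abundant than Cxcl2, with which they share the kappa-B sequence printed above. Cxcl1 had 14, 46 and 52 counts in WT and 61, 48 and 81 counts in ACAT1 KO lines, or 0.164, 0.466 and 0.344 CPM against 0.71, 0.429 and 0.771 CPM. The groups overlapped, and the log2 fold change of 0.96 (SE 0.36, interval 0.13 to 1.79, unadjusted p = 0.0279) did not pass after adjustment (adjusted p = 0.111, edgeR). Cxcl3 had 133, 232 and 250 counts in WT and 210, 283 and 273 counts in ACAT1 KO lines. On the CPM scale these were 1.56, 2.35 and 1.65 against 2.44, 2.53 and 2.60, with no overlap, and a log2 fold change of 0.47 (SE 0.168, interval 0.08 to 0.85, adjusted p = 0.0994, edgeR), which passed without WT 2 (0.67, adjusted p = 0.029). With only 0.177 to 0.551 Cxcl3 counts per 100 Cxcl2 counts, reads from the stretch identical to Cxcl2 make the Cxcl3 values uncertain.

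Cxcl10 was counted at 2503, 3511 and 3712 CPM in WT and at 4386, 4382 and 3531 CPM in ACAT1 KO lines after LPS. ACAT1 KO 3 lay between WT 2 and WT 3, so the groups overlapped, and the log2 fold change was 0.36 (SE 0.154, interval 0.01 to 0.71, unadjusted p = 0.0473, adjusted p = 0.154, edgeR).

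Cxcl11 was counted at 92.2, 152 and 140 CPM in WT and at 78.7, 91.0 and 51.1 CPM in ACAT1 KO lines. The groups did not overlap, although WT 1 and ACAT1 KO 2 lay close together. The log2 fold change was -0.78 (SE 0.232, interval -1.31 to -0.24, unadjusted p = 0.0099, adjusted p = 0.0589, edgeR), or 1.71-fold lower. Leaving out WT 1 brought the adjusted p to 0.02.

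Cxcl9, the third CXCR3 ligand, varied widely between lines. WT lines had 4.62, 12.9 and 12.6 CPM and ACAT1 KO lines 13.1, 5.64 and 3.24 CPM, so line 1 was lowest in WT and highest in ACAT1 KO. The log2 fold change was -0.45 (SE 0.52, interval -1.65 to 0.74, adjusted p = 0.597, edgeR), and it ran from -1.16 without ACAT1 KO 1 to -0.09 without ACAT1 KO 3. Cxcl16 had the smallest SE of the 7, at 452, 424 and 446 CPM in WT and 490, 514 and 429 CPM in ACAT1 KO lines, with a log2 fold change of 0.14 (SE 0.074, interval -0.03 to 0.31, adjusted p = 0.254, edgeR).

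**Figure D3:**
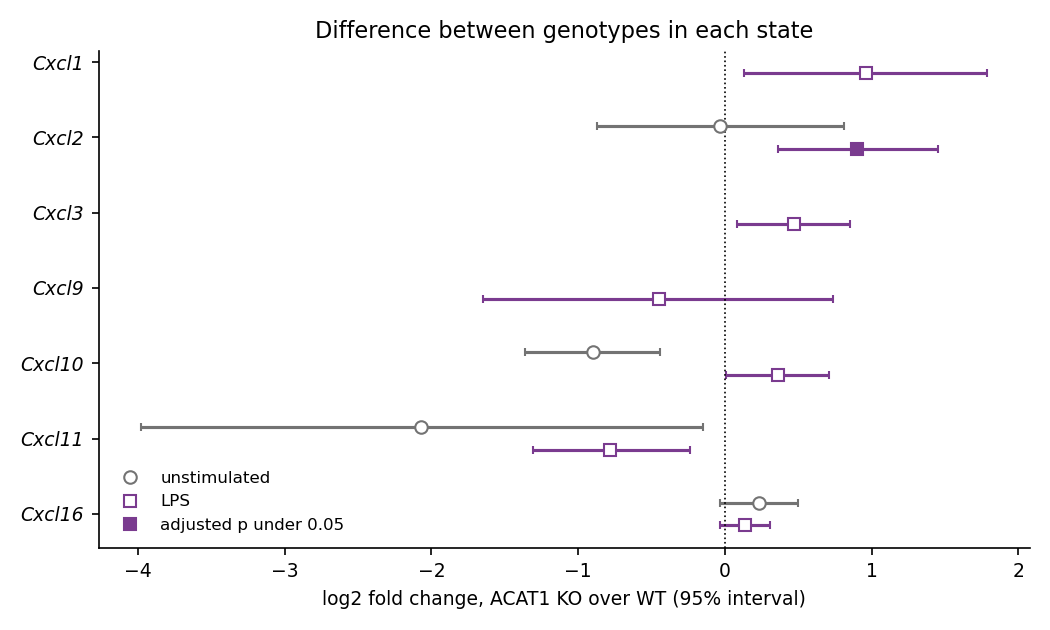
Log2 fold change of ACAT1 KO over WT (x axis) with its 95% interval from edgeR, for the 4 ligands tested without stimulation (circles) and the 7 tested after LPS (squares). The filled square, Cxcl2 after LPS at 0.90, is the 1 value with an adjusted p under 0.05.

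Because Cxcl10 and Cxcl11 are neighbours and were measured in the same libraries, their counts were also compared within each library, a comparison chosen after the values were seen. After LPS, WT lines had 3.68, 4.32 and 3.76 Cxcl11 counts per 100 Cxcl10 counts, and ACAT1 KO lines had 1.79, 2.08 and 1.45. The ratio did not depend on library scaling, and the groups were apart, at 3.92 ± 0.349 in WT and 1.77 ± 0.314 in ACAT1 KO, 2.21-fold. A two-sided exact permutation test gave p = 0.1, the smallest that 3 against 3 lines allow. Without stimulation the ratio was 4.49, 2.21 and 1.80 in WT and 1.64, 1.53 and 0 in ACAT1 KO lines, again without overlap (exact permutation p = 0.1), but from at most 21 Cxcl11 counts. The ratios of Cxcl9 to Cxcl10, Cxcl1 to Cxcl2 and Cxcl3 to Cxcl2 after LPS overlapped between genotypes (exact permutation p = 0.2, 1 and 0.5). Over the 5 ratios compared, no p could pass a threshold of 0.05.

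**Figure D4:**
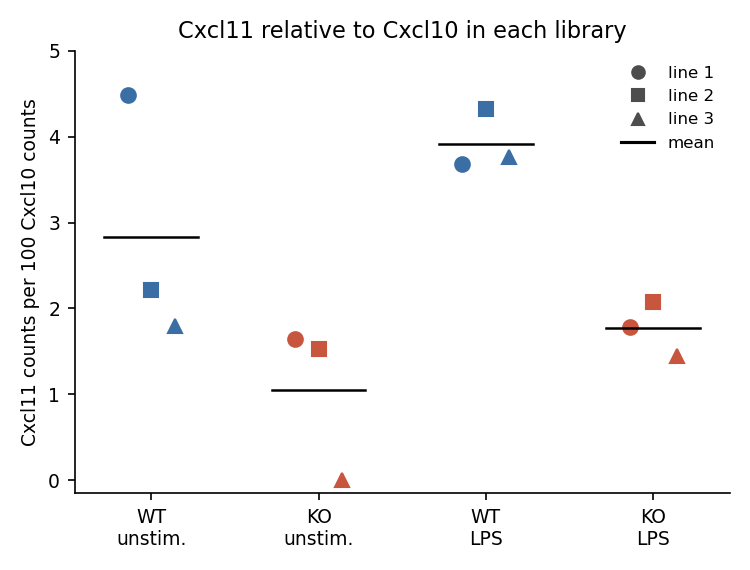
Cxcl11 counts per 100 Cxcl10 counts (y axis) in each of the 12 libraries, by genotype and state, with a black bar for the mean of 3 lines. After LPS the WT lines lie between 3.68 and 4.32 and the ACAT1 KO lines between 1.45 and 2.08.

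The response to LPS was then measured in each genotype from a fit of all 12 libraries. In WT cells Cxcl10, Cxcl11 and Cxcl16 rose, 3 of the 4 ligands listed in both states, where 29.3% of 16535 genes rose and 28% fell. In ACAT1 KO cells all 4 rose, where 29.5% of genes rose and 31.2% fell. The median log2 response of the 4 ligands was 5.20 in WT and 5.78 in ACAT1 KO cells, against -0.02 and -0.03 over all genes. Upper-quartile scaling moved the median of all genes to -0.226 and -0.175 and turned no direction among the ligands.

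Cxcl10 rose by a log2 fold change of 8.71 (SE 0.242, adjusted p = 2.52e-10, edgeR) in WT, 419-fold, and by 9.96 (SE 0.254, adjusted p = 9.14e-11, edgeR) in ACAT1 KO, 995-fold. The fitted response of Cxcl11 was 9.32 (SE 0.405, adjusted p = 4.63e-09) in WT and 10.54 (SE 0.455, adjusted p = 3.61e-09, edgeR) in ACAT1 KO cells. The latter starts from 11, 6 and 0 counts, and its size depends on the prior count of the fit. Cxcl16 rose 3.23-fold in WT (log2 1.69, SE 0.104, adjusted p = 6.86e-08) and by 1.59 on the log2 scale in ACAT1 KO cells (SE 0.104, adjusted p = 9.73e-08, edgeR). Cxcl2 rose 2.73-fold in ACAT1 KO cells (log2 1.45, SE 0.341, adjusted p = 0.00295, edgeR), while in WT its log2 fold change was 0.53 (SE 0.335, interval -0.21 to 1.26, adjusted p = 0.203, edgeR). With the line as a block, which compares each line with itself, the WT response of Cxcl2 was 0.61 (SE 0.121) and passed (adjusted p = 0.00227, edgeR). It also passed without the unstimulated WT 1 library (0.92, adjusted p = 0.0298, edgeR).

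Line by line, the size of the Cxcl10 response separated the genotypes. CPM after LPS over CPM before was 378, 392 and 487 in WT lines 1 to 3 and 902, 1030 and 1100 in ACAT1 KO lines 1 to 3. The lowest ACAT1 KO line was above the highest WT line, and of 16504 genes counted in all 12 libraries, 20.4% had line responses that did not overlap between genotypes, 6.85% with ACAT1 KO higher. The difference between the log2 responses was 1.25 (SE 0.255, 95% interval 0.69 to 1.80, unadjusted p = 4.14e-04, adjusted p = 0.0884, edgeR), where 0.187% of genes passed the adjusted and 8.92% the unadjusted threshold. With the line as a block it was 1.26 (SE 0.118, adjusted p = 0.00415, edgeR), and 1.74% of genes passed. DESeq2 gave 1.26 with an adjusted p of 1.11e-04. The larger response combined a lower resting level, 4.12 ± 0.832 against 7.74 ± 1.17 CPM, with a level after LPS of 4100 ± 493 against 3240 ± 647 CPM.

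Cxcl2 responded 1.16-, 1.87- and 1.64-fold in WT lines and 2.76-, 2.40- and 3.02-fold in ACAT1 KO lines, also without overlap, which 6.85% of genes showed in this direction. The difference of 0.92 (SE 0.474, interval -0.12 to 1.96) did not pass (adjusted p = 0.631, edgeR), nor did it with the line as a block (0.84, SE 0.17, adjusted p = 0.0555). Cxcl16 responded 3.28-, 3.43- and 3.03-fold in WT and 2.70-, 3.30- and 3.07-fold in ACAT1 KO lines, which overlapped, and its difference was -0.11 (SE 0.144, interval -0.42 to 0.21, adjusted p = 0.932, edgeR). For Cxcl11 the difference of 1.22 had an SE of 0.866 and an interval from -0.68 to 3.11 (adjusted p = 0.797, edgeR).

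**Figure D5:**
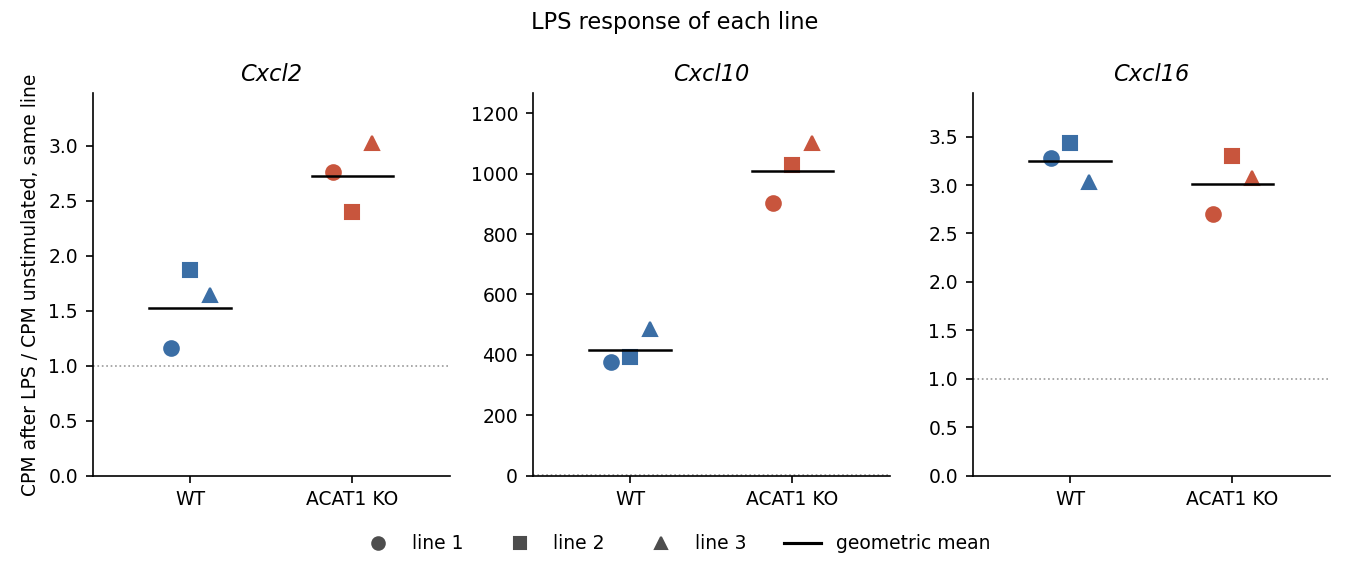
CPM after LPS divided by CPM without stimulation in the same line (y axis, from 0) for Cxcl2, Cxcl10 and Cxcl16, with 1 symbol per line and a black bar for the geometric mean. For Cxcl10 the WT lines lie at 378 to 487 and the ACAT1 KO lines at 902 to 1100.

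Genes known to regulate these ligands were counted from lists. All 11 regulators of the kappa-B pathway rose with LPS in both genotypes, where 29.3% and 29.5% of all genes rose, with a median log2 fold change of 2.37 in each against -0.02 and -0.03 over all genes. Nfkbie, an inhibitor of NF-kappa-B, rose by 3.94 (SE 0.118, adjusted p = 3.38e-10) in WT and 4.14 (SE 0.118, adjusted p = 2.10e-10, edgeR) in ACAT1 KO cells. After LPS, 3 of the 11 were higher in ACAT1 KO cells and 0 were lower, where 15.1% of all genes passed in either direction. These were Nfkb2 (0.27, SE 0.0647, adjusted p = 0.0306), Nfkbie (0.27, SE 0.0697, adjusted p = 0.0352) and Relb (0.20, SE 0.0517, adjusted p = 0.036, edgeR). A link between these mRNA values and the level of Cxcl2 was not tested. Without stimulation 0 of the 11 passed by edgeR, and 4 had an unadjusted p under 0.05, as did 19.7% of all genes.

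Of 15 genes of interferon production and signalling, 14 were tested in resting cells, and 1 was lower and 1 higher, where 1.91% of all genes passed. Stat2, a subunit of the factor that binds the ISRE, was lower in ACAT1 KO cells by a log2 fold change of -1.15 (SE 0.156, adjusted p = 0.0344), and Irf8, a myeloid interferon regulatory factor, was higher by 0.55 (SE 0.0579, adjusted p = 0.0175, edgeR). Irf7, at -1.31 (SE 0.289, adjusted p = 0.0766, edgeR), lay on the same side as Cxcl10 and likewise did not pass. With LPS, 10 of the 14 rose and 2 fell in WT, and 9 rose and 3 fell in ACAT1 KO cells, where 29.3% of all genes rose and 28% fell in WT and 29.5% rose and 31.2% fell in ACAT1 KO cells.

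After LPS, 1 of the 15 interferon genes was higher in ACAT1 KO cells and 2 were lower, where 15.1% of all genes passed. Ifnb1, which encodes interferon-beta, was counted at 24.6, 37.6 and 54.9 CPM in WT and at 122.9, 93.5 and 63.2 CPM in ACAT1 KO lines, without overlap. Its log2 fold change was 1.27 (SE 0.309, adjusted p = 0.0312, edgeR). This is mRNA after 2 hours with LPS. For secreted interferon-beta protein, measured after a longer time with LPS, the study reported less from ACAT1 KO cells. The lower genes were Irf8 (-0.65, SE 0.121, adjusted p = 0.0129) and Ifnar1, a chain of the interferon receptor (-0.28, SE 0.0575, adjusted p = 0.0197, edgeR). Of the 14 genes, the LPS response of Irf8 was the 1 that differed between genotypes at the adjusted threshold (-1.22, SE 0.148, adjusted p = 0.0195, edgeR). With the line as a block, Stat2 (0.92, SE 0.0864, adjusted p = 0.00421) and Irf7 (1.40, SE 0.155, adjusted p = 0.00708, edgeR) were among those that passed, with larger responses in ACAT1 KO cells as for Cxcl10.

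Genes that act on the ligands' mRNA or protein were tested as well. Of 9 genes, 4 rose and 2 fell in WT, and 5 rose and 2 fell in ACAT1 KO cells. The falling share was near the 28% and 31.2% of all genes, and 29.3% and 29.5% of all genes rose. Zc3h12a, an RNase of inflammatory transcripts, rose by 3.13 (SE 0.197, adjusted p = 8.29e-08) in WT and 3.33 (SE 0.199, adjusted p = 4.44e-08, edgeR) in ACAT1 KO cells. Adam10, a sheddase of Cxcl16, fell by 0.23 (SE 0.0725, adjusted p = 0.0159) in WT and 0.32 (SE 0.0725, adjusted p = 0.00246, edgeR) in ACAT1 KO cells. Adam17, of the same list, rose by 0.62 (adjusted p = 4.31e-06) in WT and 0.54 (adjusted p = 1.2e-05, edgeR) in ACAT1 KO cells. The larger fall was that of Zfp36l1, at -1.84 (adjusted p = 4.95e-07) in WT and -2.1 (adjusted p = 1.56e-07, edgeR) in ACAT1 KO cells. Between genotypes, 0 of the 9 passed in either state by edgeR, with 0 at an unadjusted p under 0.05 without stimulation and 1 after LPS, Mmp9 (unadjusted p = 0.0266, adjusted p = 0.108, edgeR). Its groups overlapped, at 91.2, 25.15 and 28.6 CPM in WT and 25.3, 13.6 and 19.3 CPM in ACAT1 KO lines, with WT 1 far above the rest.

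Among the other CXC ligands, Pf4 and Ppbp, both known from platelets, were listed in both states and Cxcl13 after LPS only. Both were lower in ACAT1 KO cells after LPS: Ppbp by a log2 fold change of -1.22 (SE 0.237, adjusted p = 0.0156) and Pf4 by -0.39 (SE 0.109, adjusted p = 0.0481, edgeR). Pf4 was abundant in both states. Without stimulation it lay at 352 ± 67.1 RPKM in WT and 266 ± 64.1 RPKM in ACAT1 KO cells, means above those of Cxcl2. After LPS it lay at 397 ± 42.9 RPKM in WT and 299 ± 39.8 RPKM in ACAT1 KO cells, a level per length between those of Cxcl10 and Cxcl16. Neither gene passed a test of the LPS response. Of 8 CXC chemokine receptor genes, Cxcr3, Cxcr4 and Cxcr5 were listed in both states and Cxcr2 after LPS only, at 0.0626 to 0.132 CPM. Cxcr4, the receptor of Cxcl12, fell by 1.33 (SE 0.186, adjusted p = 6.65e-05, edgeR) with LPS in WT. In ACAT1 KO cells its response was -0.43 and did not pass (SE 0.184, adjusted p = 0.0625, edgeR). With the line as a block this response, again -0.43, passed (SE 0.11, adjusted p = 0.00825, edgeR). The difference between the Cxcr4 responses of the genotypes was 0.90 (adjusted p = 0.227, edgeR), and 0.88 with the line as a block (adjusted p = 0.0346, edgeR). In resting ACAT1 KO against WT cells Cxcr4 was at -1.10 (SE 0.202, adjusted p = 0.0524, edgeR). Cxcr5 was lower after LPS in both genotypes, at -0.97 (SE 0.372, adjusted p = 0.041) in WT and -1.08 (SE 0.363, adjusted p = 0.0222, edgeR) in ACAT1 KO cells. With the line as a block neither Cxcr5 response passed (adjusted p = 0.0958 and 0.0553, edgeR). Cxcr3, the receptor of Cxcl9, Cxcl10 and Cxcl11, lay at 1.45 to 3.02 CPM in every library and passed no comparison.

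The genes most like each ligand were sought among 11957 genes by the correlation of log2 CPM over the 12 libraries after each state's mean was removed. The points share library depth, line and genotype, so the values are a description only. For Cxcl10 the closest were Isg15 (r = 0.989), Parp14 (r = 0.962) and Trim30a (r = 0.957). For Cxcl11 they were Oaf (r = 0.949), Fut8 (r = 0.948) and Slc25a12 (r = 0.944), but 6 of its 12 points rest on 0 to 21 counts. For Cxcl2 they were Atp6v0a1 (r = 0.933), Prdx1 (r = 0.921) and Rnf19a (r = 0.916), and for Cxcl16 Ccpg1os (r = 0.956), Sft2d3 (r = 0.926) and Prkra (r = 0.920).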

How the data were processed

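RNA-seq of 12 J774A.1 libraries was analysed, grouped by the genotype, treatment and number in their labels. Submitters' notes name Trimmomatic 0.33, HISAT2, StringTie and GRCm38. For each state the authors deposited a table of raw counts per gene in whole numbers. How they were made, and with which strand setting, is not given in the sources used here. The library kit was directional. The tables also hold 12 columns of log2 values per library and the authors' own fold changes, scores and p-values, none of which were used. They list 17544 and 17874 genes, 16699 in both, after 59 and 57 repeated entries were dropped. Replicates differed by more than sampling noise (chi-square per degree of freedom 31.7 to 269), and intervals cover the spread between lines.

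Counts were tested with edgeR 4.0.16 in R 4.3.3 (filterByExpr, TMM, two-sided quasi-likelihood test, Benjamini-Hochberg adjustment over all genes tested), within each state and, for LPS responses and their difference, in a joint fit of all 12 libraries over genes of both tables. SE is the log2 fold change over the root of F. CPM and RPKM use the TMM-scaled totals of the joint fit over genes of both tables, and RPKM the union of exons in GENCODE vM21. The study used 3 lines per genotype, and labels number WT and LPS/WT libraries alike. Deviations from group means correlated between same-numbered libraries at 0.154 to 0.389 and between others at -0.274 to -0.00625 over 16535 genes, so the line was taken as a pairing. Deviations within a group of 3 sum to 0, so positive same-numbered values push the others below 0, and these are no separate support. The tests between genotypes in each state and of the difference in LPS response, without a block, were checked on simulated data. The other tests were not. Alternatives were DESeq2 1.42.0, other scalings, filters and lengths, blocks, a shared fit and each library left out. Members and gene lists were chosen with earlier results of these data known. Named genes are all members and at most 5 per list and comparison with the smallest p, and the 3 nearest patterns. Adam10 was within this rule for the LPS response in ACAT1 KO cells but not in WT, where its value is given for comparison. Proteins were not analysed here, and single values of some listed genes are not reported here.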

Additional observations from a re-analysis of the deposited data

Results flagged for a closer look

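The LPS response of Cxcl10 differed between genotypes in an alternative test of the difference itself. With the line as a block the difference in log2 response was 1.26 (SE 0.118, adjusted p = 0.00415, edgeR), and the response was larger in 3 of 3 ACAT1 KO lines than in any WT line, as for 6.85% of 16504 genes. In the main fit, without the block, the difference was 1.25 and did not pass (adjusted p = 0.0884, edgeR). Groups of 3 libraries were not searched for outlying samples.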

How the results depend on the processing

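Of 345 alternative values for single ligands, 323 kept their direction and their side of the adjusted threshold, 12 newly passed it, 5 no longer passed and 5 changed sign. The sign changes were of values near 0. Cxcl2 without stimulation ranged from -0.34 to 0.38 with a library left out, and was 0.02 with the label number as a replicate block, 0.38 without WT 1, 0.08 without ACAT1 KO 2 and 0.11 without ACAT1 KO 3, and the Cxcl16 interaction was 0.02 without line 1 of both genotypes. The number of ligands past the threshold without stimulation was 1 instead of 0 with DESeq2, with all 12 libraries in a fit and with a term for the 3 antisense-rich libraries, Cxcl10 each time. After LPS it was 2 instead of 1 with DESeq2 (Cxcl2 and Cxcl3), 0 with all 12 libraries in a fit, and 0 to 2 with a library left out. For the interaction it was 1 instead of 0 with DESeq2 and with the line as a replicate block (Cxcl10), and 2 with that block and the term for the 3 libraries (Cxcl2 at 0.76, adjusted p = 0.0421, edgeR, and Cxcl10 at 1.21). With the replicate block by line, the LPS response of Cxcl2 in WT passed, and no other call of an LPS response changed. Deviations of same-numbered WT and ACAT1 KO libraries correlated at -0.326, 0.724 and 0.687 for numbers 1 to 3 without stimulation. After LPS they correlated at 0.16, 0.189 and -0.0799. The label numbers were not taken to pair the genotypes, though numbers 2 and 3 were alike at rest. The block by label number changed no other call. With a library left out, the LPS response in WT passed for 3 or 4 ligands and that in ACAT1 KO cells for 4. Of all genes, 314 passed without stimulation, against 1719 with DESeq2, 1353 with all 12 libraries in a fit, 664 with the term for 3 libraries, 151 with the block by label number and 7 to 522 with a library left out. After LPS 2481 passed, and as few as 867 did with a library left out. For the interaction 31 passed, against 333 with DESeq2, 288 with the replicate block by line, 457 with the block and the term, 5 without line 1 of both genotypes and as few as 2 with a library left out. Cxcl10 exceeded the next ligand per length after LPS by 5.65-fold in ACAT1 KO and 8.25-fold in WT cells when the longest coding transcript set the length. The term for 3 libraries, its combination with the block, leaving out line 1 of both genotypes and the coding length were chosen after seeing the data. Depth limits Cxcl11 and Cxcl14 without stimulation and Cxcl1 after LPS, and the spread of 3 lines limits the rest.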
